A study of Mus musculus with 24 samples.

Results

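The 3 arrays of mouse cortical neurons exposed to 0.1 µM lactacystin for 24 h were compared with the 6 arrays of untreated neurons, gene by gene. These 9 arrays, chosen by their titles, are part of a series of 24. The cells were neocortical neurons taken from Swiss albino fetuses at gestational day 15 or 16 and treated on day 5 in culture. The other arrays used here are 3 of 0.1 µM for 15 h and 3 of 1 µM for 24 h from the same kind of culture. The controls received no treatment. The labels give neither a solvent nor a collection time for them, so solvent and time in culture are part of every comparison with the controls. Separate cultures for the arrays within a group are not stated in the labels, and the p-values then measure only the spread between these samples.

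Lactacystin is a proteasome inhibitor that binds the catalytic subunits of the 20S core particle. Proteins tagged with ubiquitin then accumulate, and mammalian cells are known to answer by transcribing proteasome subunit genes, chaperone genes and oxidative stress genes. Neurons depend on the proteasome for the turnover of synaptic and misfolded proteins, and strong inhibition kills them. The question is which of these responses are present in the RNA after a day at the lower dose.

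Expression was measured on Illumina bead arrays, and all values below are log2 intensity after background correction and quantile normalization. The median raw signal of the 9 arrays lay between 52.2 and 81 intensity units, with 11373 to 12120 probes detected. The number of arrays limits the precision. Controls 5 and 6 stood apart from the other controls. Over 10892 genes, the root mean square log2 difference between 2 arrays was 0.288 to 0.400 among controls 1 to 4, and controls 5 and 6 differed from them by 0.346 to 0.546. The treated arrays differed from controls 1 to 4 by 0.232 to 0.378 and from controls 5 and 6 by 0.448 to 0.522. The largest distance between a treated array and one of controls 1 to 4 was below the largest distance among those controls. Results are therefore given with and without controls 5 and 6, and a gene is said to hold when it passed the test in the same direction both ways. Each of the 3 slides carried 2 controls and 1 array of every treated group. Controls 5 and 6 lay on slide 3. The array of 0.1 µM 24 h on that slide differed from the other arrays of its group by 0.281 and 0.305, and from controls 5 and 6 by 0.476 and 0.448. Its deviations from its group mean correlated at 0.341 with those of controls 5 and 6 from the control mean. On slides 1 and 2 the same correlation was 0.034 and 0.152.

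Few genes changed, and most of the calls rested on which arrays entered the fit. With a variance shared by all 24 arrays, limma called 245 of 10892 genes (2.25%) at a Benjamini-Hochberg adjusted p under 0.05. Of these 77 were higher (0.707%) and 168 lower (1.54%) at 0.1 µM, 5 and 9 of them by at least 2-fold. Without controls 5 and 6, 84 genes (0.771%) were called, 30 higher (0.275%) and 54 lower (0.496%). Of the 245 genes 69 hold (0.633% of all genes), 24 higher (0.22%) and 45 lower (0.413%). The other 176 kept their sign without these controls but did not pass. A fit of the 9 arrays alone called 0 genes with limma (smallest adjusted p = 0.387), although 1151 genes (10.6%) had an unadjusted p under 0.05 against 2177 in the fit of all arrays. A fit of the 7 arrays without controls 5 and 6 also called 0 (smallest adjusted p = 0.421, 1158 genes at an unadjusted p under 0.05). The count fell to 6, 3 and 58 without treated replicate 1, 2 and 3, and to 108 and 85 without control 1 and control 6. It rose to 469, 435 and 958 without control 2, 3 and 4, and to 539 (4.95%) with slide as a block, 211 higher (1.94%) and 328 lower (3.01%), which kept all 245. Over genes the median SD was 0.219 in the controls, 0.130 at 0.1 µM 24 h and 0.120 on average in the other treated groups. The mean squared SE of this contrast was 0.0215 in the shared fit and 0.0257 from the own variance of both groups. It was 0.0283 in the fit of the 9 arrays, so the shared fit understates the error on average. Every adjusted p below comes from the fit of all arrays by limma unless stated, and none of the genes named passed in the fit of the 9 arrays.

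**Figure D1:**
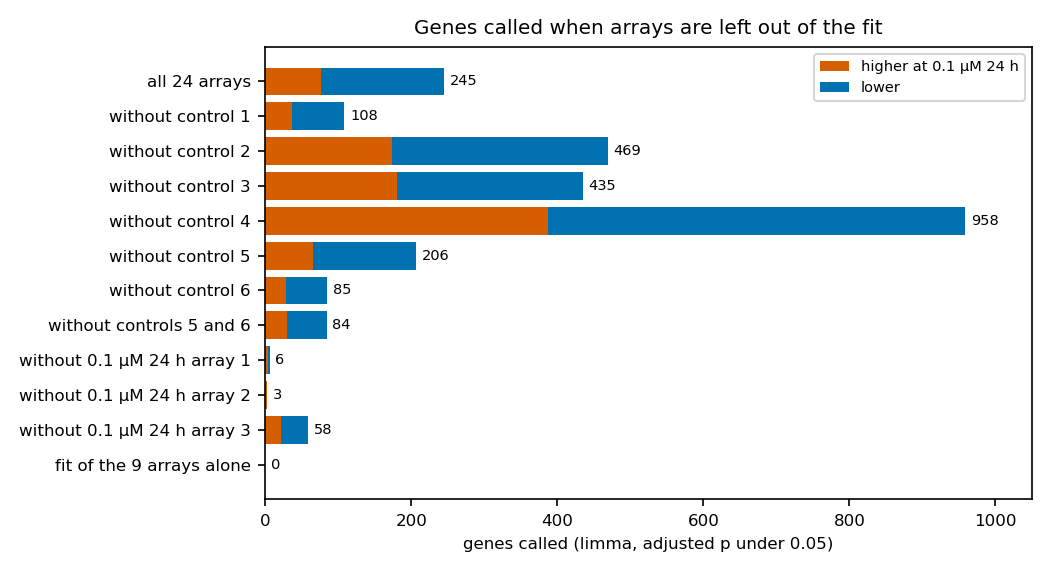
Number of genes called by limma (adjusted p under 0.05, horizontal axis) for 0.1 µM 24 h against the controls, in the fit of all 24 arrays, with arrays left out, and in the fit of the 9 arrays alone. Bars are split into genes higher and lower at 0.1 µM, and the total runs from 0 to 958.

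The changes that hold were small. Their median size was 0.60 on the log2 scale, and the largest was the fall of Npy. In 63 of the 69 genes the treated arrays did not overlap with the 6 controls, against 691 of all genes (6.34%), 226 of which lay above the controls (2.07%) and 465 below (4.27%). All 69 had the same direction on each of the 3 slides, as did 240 of the 245 called genes. All 69 were called with slide as a block. Since every slide held the same set of groups, the block left each difference unchanged. These counts and the lack of overlap use the arrays that selected the genes, so they are no independent support. Across 5 other background corrections or scalings of the arrays, 47 of the 69, 11 higher and 36 lower, were called every time. The scaling mattered most for rises. The median over all genes was -0.03, but -0.20 with the arrays centred on their medians and -0.13 in the authors' ratio table, where 96.8% and 95.9% of the called genes were lower, against 68.6% here. Of the 24 rises that hold, Gstm5, Sod1, Psmb3, Psmc3, Sqstm1 and Fut8 are among those that did not pass with median centring or in the ratio table.

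**Figure D2:**
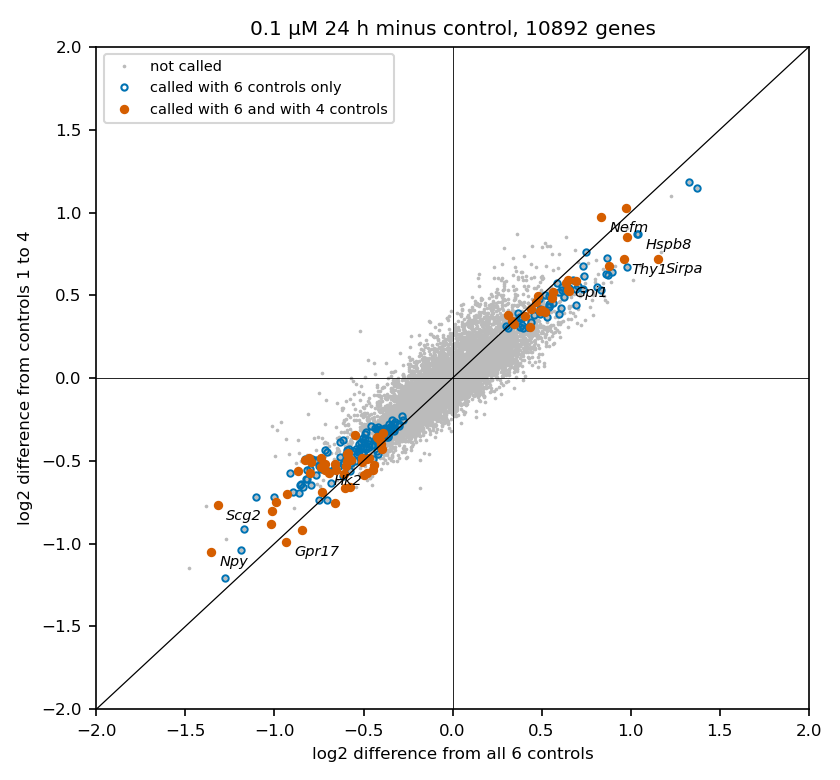
Log2 difference of 0.1 µM 24 h from all 6 controls (horizontal) and from controls 1 to 4 only (vertical) for 10892 genes. Filled points are the 69 genes called both ways and open points the 176 called with 6 controls only. The median size of the 245 called genes was 0.55 from all 6 controls and 0.48 from controls 1 to 4.

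Genes of glycolysis were among those with the steadiest changes. Gpi1, which converts glucose 6-phosphate to fructose 6-phosphate, was called in all 9 fits that left out 1 array. Its treated arrays read 11.45, 11.48 and 11.47, and its controls had a lowest value of 10.60, a median of 10.87 and a highest of 11.04. All treated arrays lay above all controls, and Gpi1 rose by 0.63 ± 0.090 (SE, n = 3 and 6, limma adjusted p = 0.00283). It was 0.57 above controls 1 to 4, 0.35 above all controls with median centring, and a second Gpi1 probe rose by 1.09. Aldoa, the aldolase that splits fructose 1,6-bisphosphate, read 11.51, 11.66 and 11.66 in the treated arrays and 10.60, 10.997 and 11.24 (lowest, median, highest) in the controls. The groups did not overlap, and Aldoa rose by 0.65 ± 0.11 (limma adjusted p = 0.0095), or by 0.36 with median centring. Hk2, a hexokinase that carries out the first step, moved the other way. It read 6.13, 5.80 and 5.96 in the treated arrays and 6.38, 6.62 and 7.07 in the controls, a fall of 0.72 (SE 0.12, limma adjusted p = 0.0095) without overlap. All 3 genes hold and kept their calls in the authors' ratio table, with median centring and with cyclic loess.

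Of 20 glycolysis genes tested, 3 rose and 1 fell, beside 0.707% and 1.54% of all genes. The third rise was in the pyruvate kinase gene Pkm (0.31 ± 0.076, limma adjusted p = 0.0373), which does not hold (0.30, adjusted p = 0.0742 without controls 5 and 6) and stood at 0.06 with median centring. The list median was 0.21 beside -0.03 for all genes, and -0.04 beside -0.20 with median centring. Gpi1 was called in all 9 of these fits together with the RIKEN gene 1110008P14Rik. The latter read 10.57, 10.47 and 10.68 in the treated arrays and 9.79, 9.87 and 10.11 in the controls, and rose by 0.65 ± 0.078 (limma adjusted p = 4.26e-04) without overlap. A further 5 genes, Aldoa, Hk2, Gpr17, Thy1 and Trappc5, were called in 8 of the 9 fits. Trappc5, a subunit of a complex that tethers vesicles to the Golgi apparatus, fell by 0.60 (SE 0.093, limma adjusted p = 0.00694).

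**Figure D3:**
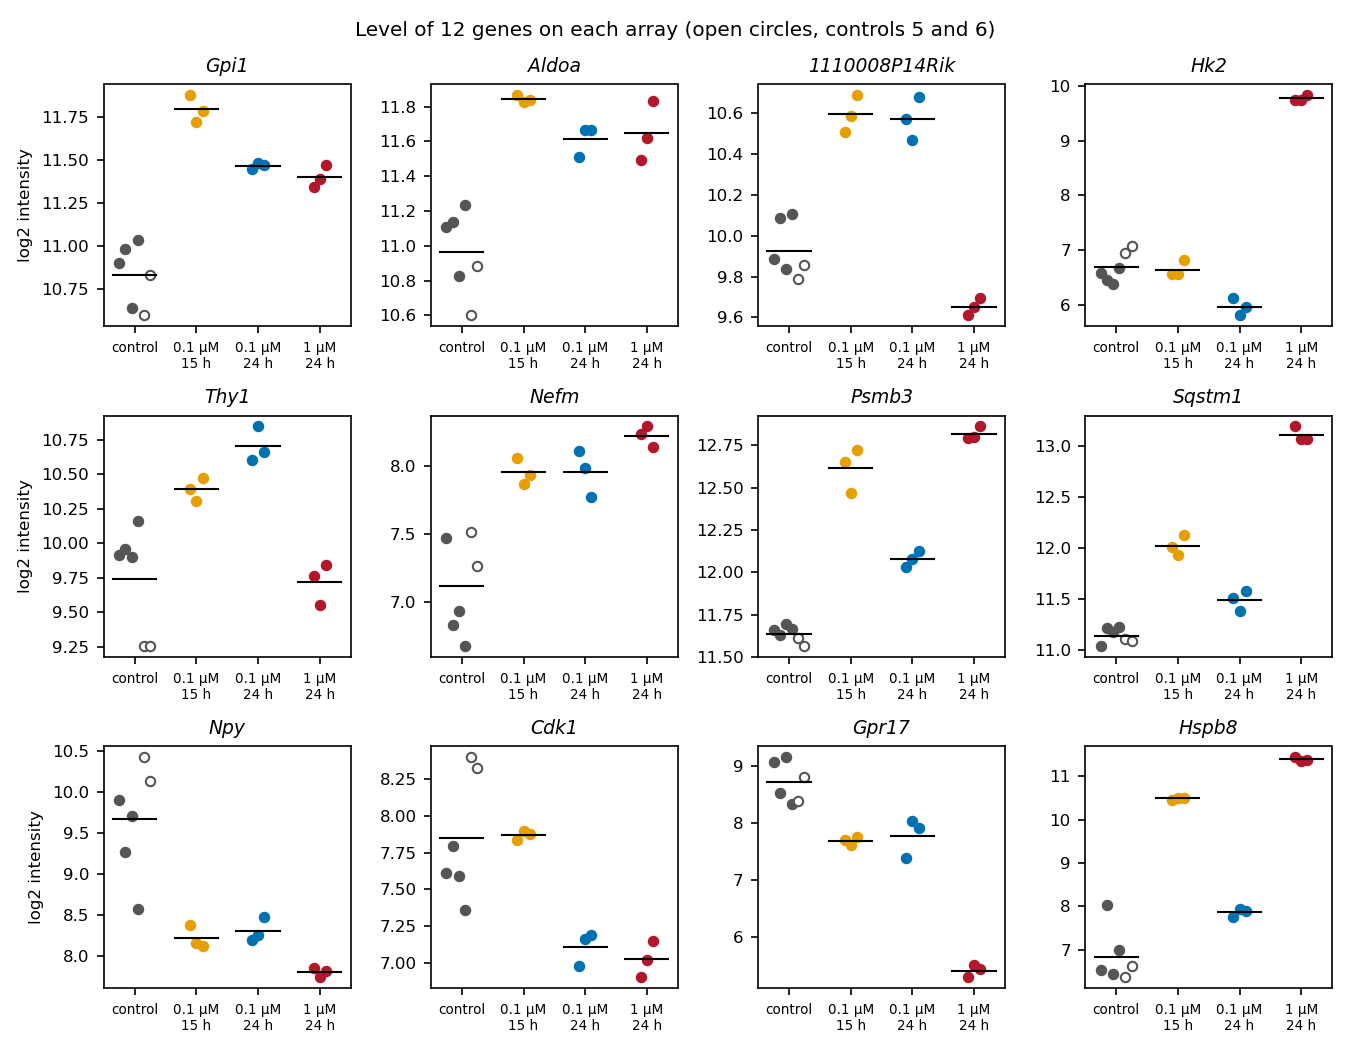
Log2 intensity of 12 genes (vertical axes, each with its own range) on the 6 control arrays, the 3 arrays of 0.1 µM 15 h, the 3 of 0.1 µM 24 h and the 3 of 1 µM 24 h. Lines are group means and open circles are controls 5 and 6. Hspb8 is the only gene shown in which the arrays of 0.1 µM 24 h overlap with the controls.

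Most genes of proteasome subunits, the target of the drug, were close to the control level. Of 36 subunit genes tested 2 were higher and 0 lower, beside 0.707% and 1.54% of all genes. Their median was 0.06 beside -0.03 for all genes. The sign of that median depended on the scaling, since it was -0.17 with median centring (all genes -0.20) and -0.11 in the authors' ratio table (all genes -0.13). Psmb3, a subunit of the 20S core, read 12.03, 12.08 and 12.12 in the treated arrays and 11.56, 11.64 and 11.69 in the controls. The groups did not overlap, the difference was 0.44 on slides 1 and 3 and 0.45 on slide 2, and Psmb3 rose by 0.44 ± 0.076 (limma adjusted p = 0.0095). Psmc3, an ATPase of the 19S cap that unfolds substrates, read 11.49, 11.59 and 11.62 against 11.10, 11.24 and 11.39 and rose by 0.33 ± 0.072 (limma adjusted p = 0.0238) without overlap. Both hold, but neither passed with median centring, where they stood at 0.19 and 0.06, or in the authors' ratio table, at 0.26 and 0.12. The other subunits did not pass and ranged from -0.65 (Psmc1) to 0.49 (Psmb7). Among them were Psma5 of the core (-0.04 ± 0.20, limma adjusted p = 0.928) and the ubiquitin receptor Psmd4 (0.08 ± 0.085, limma adjusted p = 0.657).

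Sqstm1 encodes p62, which carries ubiquitin-tagged cargo to autophagy. It read 11.51, 11.38 and 11.58 in the treated arrays and 11.04, 11.15 and 11.22 in the controls. The groups did not overlap, and Sqstm1 rose by 0.35 ± 0.071 (limma adjusted p = 0.0183) and holds, with 0.07 under median centring (adjusted p = 0.685). It was the 1 called gene among 15 ubiquitin and shuttle genes and among 31 lysosome and autophagy genes.

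Targets of NRF2, the transcription factor that answers oxidative stress, were higher in part. Of 28 tested 5 rose and 0 fell, beside 0.707% and 1.54% of all genes. Their median was 0.16, or -0.04 with median centring beside -0.20 for all genes. The glutathione transferase gene Gstm5 read 11.30, 11.25 and 11.21 against 10.67, 10.76 and 10.86 in the controls. The groups did not overlap, and Gstm5 rose by 0.48 ± 0.088 (limma adjusted p = 0.0118). The superoxide dismutase gene Sod1 rose by 0.41 ± 0.076 (limma adjusted p = 0.0125). These 2 hold, but neither passed with median centring or in the authors' ratio table, where Gstm5 stood at 0.21 (adjusted p = 0.304) and 0.27 (adjusted p = 0.102). The transferase gene Gsta4 (0.90 ± 0.21), the peroxiredoxin gene Prdx1 (0.52 ± 0.13) and the ferritin heavy chain gene Fth1 (0.42 ± 0.11) passed with 6 controls only. With median centring Prdx1 stood at 0.27 and Fth1 at 0.21, and neither passed. Classical members that react strongly to stress did not pass, with Hmox1 at -0.47 ± 0.20 (limma adjusted p = 0.2) and Srxn1 at 0.17 ± 0.21 (limma adjusted p = 0.703).

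The difference between 24 h and 15 h of the same dose does not involve the controls. Its SE and p-value use the variance of all 24 arrays, controls included, and a fit of these 6 arrays alone called 1569 genes. In the fit of all arrays the count was lower. limma called 1282 genes (11.8%) between the 2 time points, 497 higher (4.56%) and 785 lower (7.21%) at 24 h. This is more than the 245 against the controls, but with median centring the counts were 826 and 2199, and they were 1040 and 1932 with the authors' ratios. Proteasome subunits were lower at 24 h in 23 of 36 cases and higher in 0, with a median difference of -0.51. This count was between 18 and 24 under 3 other scalings and in a fit of these 6 arrays alone. Psma5 fell by 1.15 (SE 0.23, limma adjusted p = 0.00228), Psmd4 by 0.77 (SE 0.099), Psmc3 by 0.62 (SE 0.083) and Psmb3 by 0.54 (SE 0.087). On the Psmb3 probe the 15 h arrays read 12.65, 12.47 and 12.72, above every 24 h array. Set against the controls, which both time points share, 25 of 36 subunits were higher at 15 h (8.52% of all genes were) with a median of 0.61.

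NRF2 targets followed the same order, and a few chaperone genes did. Of 28 NRF2 targets 13 were lower at 24 h than at 15 h and 0 higher (median -0.53), with Srxn1 lower by 1.47 on the log2 scale (SE 0.24, limma adjusted p = 3.74e-04) and Hmox1 at -1.05 ± 0.24. Several probe names in the deposited table do not match their symbols plainly, so which gene these probes measure is uncertain. Among them are probes of Srxn1, Dcn, Crem, Fadd, Sox5, Tle4 and Gad1 and a further probe of Trib3. Against the controls 21 of the 28 were higher at 15 h. Hspb8, a small heat shock protein that acts with Bag3 in clearing misfolded proteins, read 10.46, 10.51 and 10.50 at 15 h and 7.77, 7.93 and 7.89 at 24 h. It gave the largest such fall among the genes named, with a log2 difference of -2.63 ± 0.26 (limma adjusted p = 2.72e-06). Bag3 stood at -0.96 ± 0.15 in the same comparison. Tnfrsf12a, the TWEAK receptor, stood at -1.33 ± 0.18 and the metallothionein gene Mt1 at -0.57 ± 0.14. Of 25 heat shock and chaperone genes 6 were lower and 0 higher, with a median of only -0.06 beside -0.007 for all genes. Dnajb1, at 0.05 ± 0.079, did not pass.

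Cholesterol synthesis genes ran in the opposite order. Of 20 tested 8 were higher and 1 lower at 24 h than at 15 h (median 0.51), with 11 of 20 lower than the controls at 15 h (8.02% of all genes were) and 0 called in either direction at 24 h. The count of 8 was between 2 and 12 under the other scalings and in the fit of the 6 arrays. Synaptic vesicle genes were higher at 24 h than at 15 h in 9 of 31 cases and lower in 0, and between 4 and 10 under the same alternatives. The vesicular glutamate transporter gene Slc17a7 stood at 1.00 ± 0.23 (limma adjusted p = 0.00742) and the calcium sensor gene Syt1 at 0.40 ± 0.11 (limma adjusted p = 0.0177).

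**Figure D4:**
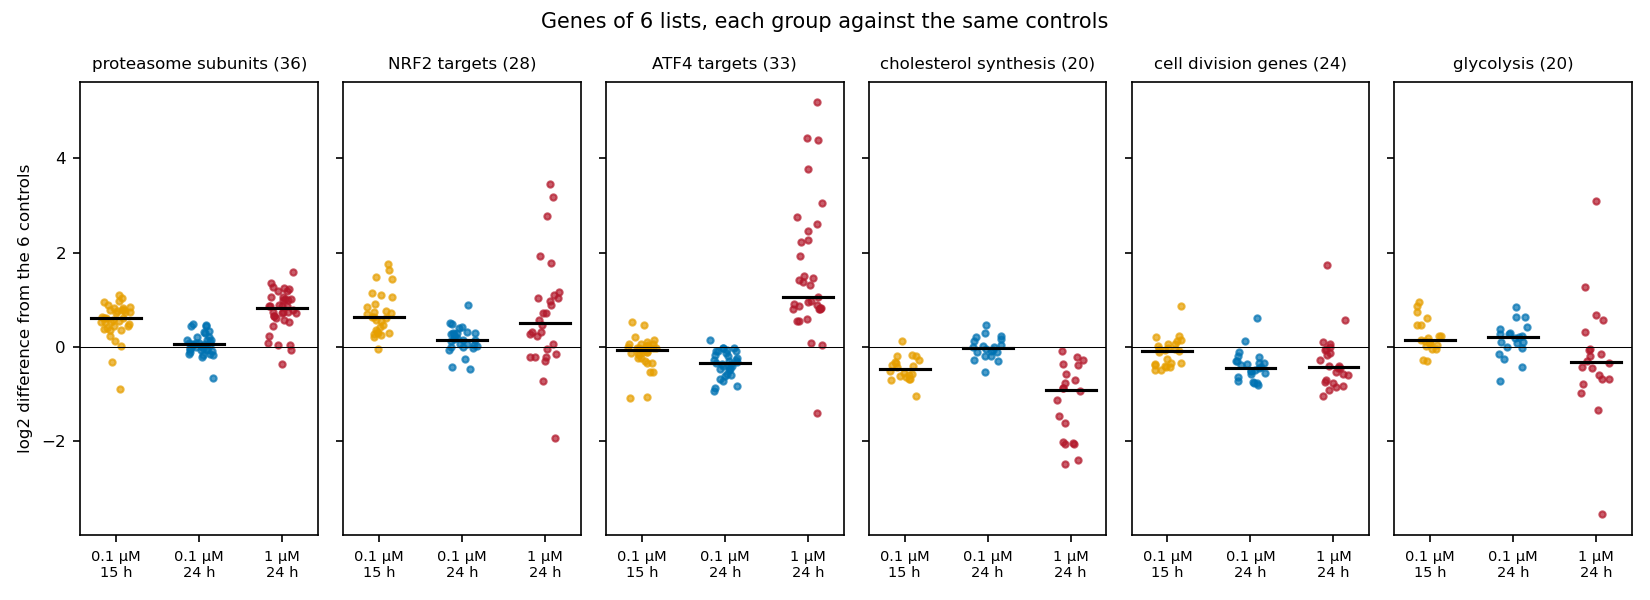
Log2 difference from the 6 controls (vertical axis) for each gene of 6 lists at 0.1 µM 15 h, 0.1 µM 24 h and 1 µM 24 h, with group medians as lines. The 3 groups share their controls. The median of the 36 proteasome subunits was 0.61, 0.06 and 0.83, of which the value at 0.1 µM 24 h turned to -0.17 when arrays were centred on their medians. The median of all genes at 0.1 µM 24 h fell as well with that centring and lay lower still.

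Little else of the stress response passed the test against the controls. Hspb8 was the 1 heat shock gene called (1.04 ± 0.23, limma adjusted p = 0.0267). Control 2 read 8.03, above all 3 treated arrays, and the other 5 controls lay between 6.36 and 6.98, so the groups overlapped. Without controls 5 and 6 its adjusted p was 0.0781. Hspa8, the constitutive cytosolic chaperone, stood at 0.17 ± 0.16 and the endoplasmic reticulum chaperone gene Hspa5 at -0.18 ± 0.13, and neither passed. None of 15 genes of the endoplasmic reticulum stress response and none of 23 p53 targets was called, Cdkn1a among the latter (0.14 ± 0.11, limma adjusted p = 0.531).

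ATF4 targets, which serve amino acid supply and stress, lay on the low side. Of 33 tested 2 fell, beside 1.54% of all genes. A negative difference was seen in 32, beside 6102 of all 10892 genes, and the median was -0.33 beside -0.03 for all genes. The medians on slides 1, 2 and 3 were -0.36, -0.05 and -0.67, and the median was -0.22 without controls 5 and 6, where 0 of these genes passed. The mitochondrial serine enzyme gene Shmt2 fell by 0.82 (SE 0.21, limma adjusted p = 0.0473), and the stress-induced regulator gene Nupr1 was not detected on any treated array and was at least 1.36-fold lower (limma adjusted p = 0.034). Neither holds, and a second Shmt2 probe at -0.44 did not pass. Trib3 (-0.94 ± 0.36) and Chac1 (-0.87 ± 0.29) did not pass. For Trib3 controls 5 and 6 read 7.36 and 7.31 and the other controls 4.98 to 6.26, beside 5.51, 4.71 and 5.56 in the treated arrays. Without these controls Trib3 stood at -0.37.

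Genes of cell death moved little. Of 25 proapoptotic genes 2 fell and 0 rose, beside 1.54% and 0.707% of all genes. The caspase gene Casp2 fell by 0.42 (SE 0.096, limma adjusted p = 0.031) and Fadd, the adaptor of death receptors, by 0.40 (SE 0.098, limma adjusted p = 0.0364). Without controls 5 and 6 their adjusted p was 0.06 and 0.0542. Other Fadd probes stood at -0.28 and -0.21 and did not pass. Bcl2l11 (-0.04 ± 0.16), Bbc3 (0.29 ± 0.16) and Bcl2 (0.28 ± 0.17) did not pass.

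Thy1 and Nefm rose and hold. Thy1, a surface glycoprotein of mature neurons, read 10.60, 10.85 and 10.66 in the treated arrays and 9.26, 9.91 and 10.16 in the controls. It rose by 0.96 ± 0.15 (limma adjusted p = 0.00694) without overlap, and by 0.72 against controls 1 to 4. Nefm, the medium neurofilament gene, read 8.10, 7.98 and 7.77 against 6.68, 7.10 and 7.51 and rose by 0.84 ± 0.15 (limma adjusted p = 0.0109) without overlap. Its difference was 0.97 without controls 5 and 6. Nefm was the 1 called gene among 21 neuronal cytoskeleton and growth genes, whose median was 0.09.

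Sirpa, a surface receptor that binds CD47, gave the largest rise that holds, 1.15 ± 0.27 (limma adjusted p = 0.0325). It read 7.03, 7.003 and 6.70 in the treated arrays and 4.74, 5.87 and 6.59 in the controls. The groups did not overlap, but it was detected on 5 of 6 controls, controls 5 and 6 read 5.05 and 4.74, and the difference was 0.72 without them. The potassium channel gene Kcnh3 (0.66 ± 0.14) and the carbonic anhydrase gene Car2 (0.69 ± 0.13) rose without overlap and hold. Egr1, an activity-induced transcription factor, read 10.52, 10.29 and 9.98 against 8.76, 9.22 and 9.999 in the controls and rose by 0.98 ± 0.17 (limma adjusted p = 0.0095). Control 4 lay just above the lowest treated array. Egr1 was the 1 called gene among 24 immediate early genes, whose median was -0.15, and Fos stood at -0.52 ± 0.51 (limma adjusted p = 0.605), or at 0.28 without controls 5 and 6. The calcium-binding protein gene Rcn3 (0.97 ± 0.21, detected on 4 of 6 controls) and the fucosyltransferase gene Fut8 (0.57 ± 0.12) complete the 12 largest rises that hold. Fut8 did not pass with median centring or in the authors' ratio table.

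Synaptic lists as a whole changed little. Of 31 synaptic vesicle genes 1 rose, the vesicular glutamate transporter gene Slc17a6 (0.39 ± 0.10, limma adjusted p = 0.0447). Of 26 postsynaptic and receptor genes 2 rose, the scaffold gene Shank2 (0.65 ± 0.16) and the GABA receptor subunit gene Gabrb1 (0.39 ± 0.10). Of 23 ion channel genes 1 rose, the calcium channel gene Cacna1a (0.68 ± 0.18). None of these 4 holds, and with median centring Slc17a6 stood at 0.11 and Gabrb1 at 0.08 and did not pass. The list medians were 0.08, 0.15 and 0.18, all above the -0.03 of all genes, of which 0.707% rose.

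Neuropeptide and granin genes gave the largest falls that hold. Npy, neuropeptide Y of cortical interneurons, read 8.19, 8.26 and 8.47 in the treated arrays and 8.56, 9.80 and 10.42 in the controls. It fell by 1.36 (SE 0.25, limma adjusted p = 0.0118) without overlap, and by 1.05 against controls 1 to 4. Scg2, a granin of dense core vesicles, read 8.52, 8.54 and 8.45 against 8.78, 9.69 and 11.14 and fell by 1.32 (SE 0.33, limma adjusted p = 0.0413) without overlap. Controls 5 and 6 read 10.71 and 11.14, and without them the fall was 0.77. Both hold, but Scg2 did not pass with cyclic loess (adjusted p = 0.0566). Sst, somatostatin, fell by 1.00 (SE 0.23, limma adjusted p = 0.0312) without overlap and does not hold.

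Cck and Grp went the other way. Cck, the cholecystokinin gene of interneurons and some pyramidal cells, read 10.34, 10.25 and 10.34 against 8.93, 9.29 and 10.01, rose by 0.88 ± 0.17 (limma adjusted p = 0.0176) without overlap and holds. Grp rose by 1.33 ± 0.30 (limma adjusted p = 0.0279) and does not. Of 16 neuropeptide and granin genes 2 rose and 3 fell, beside 0.707% and 1.54% of all genes. Of 13 genes of GABAergic interneurons 1 rose and 3 fell, the third being the homeobox gene Dlx6 (-0.66 ± 0.17). Npy and Sst are on both lists, so the 2 counts are not separate. The summed signal of the 13 interneuron genes was 11753 to 12240 in the treated arrays and 12630 to 18980 in the controls, without overlap. The sum adds unlogged intensities, so bright genes such as Sst, already called, weigh most in it. Of the 13 genes 5 had a positive difference. The list median was -0.29, or -0.10 without controls 5 and 6. The transmitter enzyme gene Gad1, which marks these cells, did not pass (-0.30 ± 0.14, limma adjusted p = 0.234) and stood at -0.10 without controls 5 and 6. In bulk RNA, fewer cells of a type and less RNA per cell cannot be told apart.

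Genes of deep-layer projection neurons did not hold. Sox5 (-0.84 ± 0.20), Fezf2 (-0.77 ± 0.20) and Tle4 (-0.52 ± 0.13), which belong to deep layers, fell with all 6 controls. None of the 3 holds, and 0 of the 21 projection neuron genes tested passed without controls 5 and 6. In Fezf2 and Tle4 the groups overlapped. Other probes, of Sox5 at -0.27 and -0.59 and of Tle4 at -0.36, did not pass. In Sox5 controls 2 and 4 read 9.71 and 9.97, near the treated values of 9.67, 9.71 and 9.62, and the other 4 lay between 10.79 and 10.90.

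Cell division genes lay on the low side, most of all against controls 5 and 6. Of 24 tested 3 fell and 0 rose, beside 1.54% and 0.707% of all genes. A negative difference was seen in 22, beside 6102 of all 10892 genes, and the median was -0.44. On slides 1, 2 and 3 the medians were -0.17, -0.16 and -0.94, and without controls 5 and 6 it was -0.26. The summed signal of the list was 6733 to 7043 in the treated arrays, 7306 to 8538 in controls 1 to 4, and 12771 and 10948 in controls 5 and 6. The treated arrays lay below all controls. Cdk1, the kinase that drives mitosis, read 6.97, 7.16 and 7.19 against 7.36, 7.70 and 8.40 and fell by 0.74 (SE 0.17, limma adjusted p = 0.028). Aurka, a kinase of the mitotic spindle, read 6.91, 6.84 and 6.91 against 7.11, 7.57 and 8.46 and fell by 0.81 (SE 0.20, limma adjusted p = 0.0394). Neither overlapped, and both hold, at -0.48 (adjusted p = 0.0358) and -0.48 (adjusted p = 0.049) against controls 1 to 4. For Cdk1 the differences on slides 1, 2 and 3 were -0.54, -0.28 and -1.39. With cyclic loess Aurka did not pass (adjusted p = 0.0644). Plk1, another mitotic kinase, fell by 0.72 (SE 0.19, limma adjusted p = 0.0473) and does not hold.

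The promoters of the 2 mitotic kinase genes that hold are shown because such genes are often driven through paired CCAAT and CHR elements near the start. The windows run from 250 bases before to 50 after the transcription start, are from RefSeq on build GRCm38.p6, lie on the minus strand of chr10:69352863-69353162 and chr2:172370521-172370820, and are written in the direction of transcription. Capitals mark the letters CCAAT and TTTGAA on either strand, the second being the core of the CHR element.
Cdk1: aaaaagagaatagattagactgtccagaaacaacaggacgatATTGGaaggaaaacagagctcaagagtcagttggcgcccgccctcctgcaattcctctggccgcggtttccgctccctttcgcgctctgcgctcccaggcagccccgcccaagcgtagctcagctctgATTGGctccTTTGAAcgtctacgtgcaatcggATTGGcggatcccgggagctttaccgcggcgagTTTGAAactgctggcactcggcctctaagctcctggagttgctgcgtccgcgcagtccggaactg
Aurka: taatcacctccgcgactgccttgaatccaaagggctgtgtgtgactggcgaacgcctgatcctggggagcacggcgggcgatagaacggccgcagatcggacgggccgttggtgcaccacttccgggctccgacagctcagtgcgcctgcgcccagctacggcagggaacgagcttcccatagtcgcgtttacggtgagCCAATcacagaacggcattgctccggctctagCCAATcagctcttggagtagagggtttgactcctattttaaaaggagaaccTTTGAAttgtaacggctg
CCAAT occurred 3 times in the Cdk1 window and 2 times in the Aurka window, and TTTGAA 2 times and 1 time. Of the 20 cell division genes tested that have a window, 17 held CCAAT and 9 held TTTGAA, beside 41.1% and 20.2% of 27025 genes with a window. A match describes the letters and is not a measured binding site.

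Further genes of the cycle hold outside that list. The mitotic protein gene Pimreg fell by 0.80 (SE 0.16, limma adjusted p = 0.0176), the phosphatase gene Cdc25a by 0.70 (SE 0.13), the helicase gene Pif1 by 0.79 (SE 0.19) and the spindle midzone gene Prc1 by 0.55 (SE 0.13), each without overlap. Pif1, Cdc25a and Prc1 were picked from the genes that hold after their values were seen, and Pif1 did not pass with cyclic loess. At 24 h Cdk1 (-0.76 ± 0.19), Plk1 (-0.84 ± 0.22) and Pimreg (-0.83 ± 0.19) were also lower than at 15 h of the same dose. Aurka (-0.70 ± 0.23, limma adjusted p = 0.0526) and Cdc25a (limma adjusted p = 0.162) did not pass between these times, while Pif1 and Prc1 did. Controls enter the SE of these differences but not the differences themselves.

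Markers of other cells were measured in the same RNA. The defining markers of neurons (Tubb3, Map2, Syt1), astrocytes (Gfap, Aqp4, Slc1a3) and the oligodendrocyte lineage (Sox10, Olig2, Pdgfra) were detected on all 9 arrays, so the cultures held glial RNA besides neuronal RNA. The microglial Csf1r, the endothelial Cdh5 and the fibroblast collagen genes Col1a1 and Col3a1 were detected on none of the 9. The fibroblast marker Dcn was detected on all 6 controls and all 3 treated arrays. The endothelial Pecam1 was detected on 1 treated array, and Cldn5 on 1 control and 1 treated array. The microglial Aif1 was detected on all 6 controls and 1 treated array, and Cx3cr1 on 3 controls and 0 treated arrays. Of 17 oligodendrocyte lineage genes (median -0.23) 2 fell and 0 rose, beside 1.54% and 0.707% of all genes. Gpr17, a receptor of committed precursors, read 7.38, 8.04 and 7.90 against 8.32, 8.66 and 9.14, fell by 0.93 (SE 0.16, limma adjusted p = 0.0095) without overlap and fell by 0.99 against controls 1 to 4. The adhesion adaptor gene Lims2 fell by 0.66 (SE 0.12, limma adjusted p = 0.0109), and by 0.76 without controls 5 and 6. Both hold, while Sox10 (-0.12 ± 0.086) and Pdgfra (-0.31 ± 0.12) did not pass. The Gpr17 gene lies within the span of Lims2, so these 2 falls do not come from separate loci. The summed signal of this list was 12053 to 13416 in the treated arrays and 12381 to 15249 in the controls, which overlap.

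None of 19 astrocyte markers was called. Their median was 0.13 and their sum was 31790 to 32187 in the treated arrays and 26753 to 38793 in the controls, with Aqp4 at 0.79 ± 0.24 (limma adjusted p = 0.0767). None of 10 microglia markers and none of 4 endothelial markers was called. Of 11 fibroblast and meningeal genes Dcn alone fell, by 1.17 (SE 0.25, limma adjusted p = 0.0256). Its 3 kept probes fell alike, but the groups overlapped through control 2 and Dcn does not hold.

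**Figure D5:**
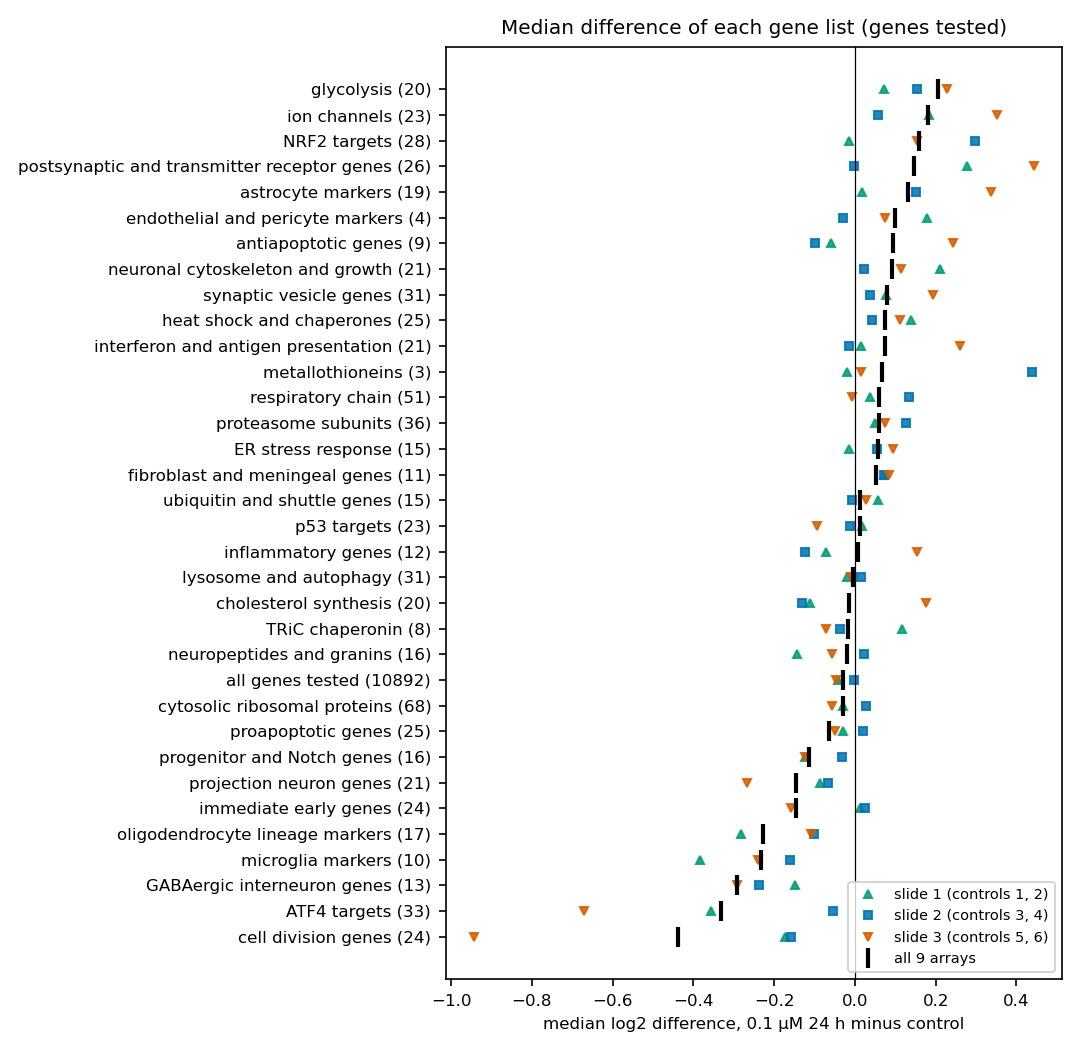
Median log2 difference of 0.1 µM 24 h from the controls (horizontal axis) for each gene list, over all 9 arrays (black ticks) and within slides 1, 2 and 3 (symbols), with the number of genes tested in brackets. Cell division genes and ATF4 targets are lowest, at -0.44 and -0.33, and on the slide with controls 5 and 6 they reach -0.94 and -0.67. With each array centred on its median the signs of glycolysis, NRF2 and proteasome medians turn, but the median of all genes falls too and lies below each of them.

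The rest of the 12 largest falls that hold came from genes of mixed function, and not all 45 falls that hold are named. The homeobox gene Gbx2 (-1.01 ± 0.19, limma adjusted p = 0.0149) was detected on 1 of 3 treated arrays. The membrane protein gene Sidt1 (-1.02 ± 0.18) overlapped with control 4. The phospholipase-like gene Gdpd3 (-0.99 ± 0.18), Fam210b (-0.93 ± 0.19) and Msantd1 (-0.87 ± 0.19) fell without overlap. Rgs9bp, an anchor of a G-protein regulator, stood at -0.84 ± 0.16, but its second probe stood at -0.02. Crem, a cAMP-responsive transcription factor, stood at -0.83 ± 0.21, and a second probe, detected on 6 of 24 arrays, at 0.15. With cyclic loess Crem did not pass (adjusted p = 0.0752).

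The doses differed widely at 24 h. limma called 5846 genes (53.7%) between 1 µM and 0.1 µM, 2908 higher (26.7%) and 2938 lower (27%) at 1 µM. Stress genes that did not pass at 0.1 µM were among those higher at 1 µM. Tnfrsf12a was higher by 5.97 ± 0.18, Trib3 by 5.33 ± 0.42 and Hmox1 by 3.94 ± 0.24. Of 33 ATF4 targets 30 were higher at 1 µM (median 1.38) and of 36 proteasome subunits 27 were (median 0.64). Hk2, which fell at 0.1 µM, was 3.81 ± 0.14 higher at 1 µM, and Cck, which rose, was lower by 3.33 on the log2 scale (SE 0.20). For Gpi1 (-0.06 ± 0.10, limma adjusted p = 0.639) and Cdk1 (-0.09 ± 0.19, limma adjusted p = 0.737) the doses did not differ by the test. Against the shared controls, 32 of the 69 genes that hold were called in the same direction at 1 µM and 23 in the opposite one, and at 15 h of 0.1 µM 26 were called in the same direction and 0 in the opposite one. Beside this, 57.4% of all genes were called in either direction at 1 µM and 16.5% at 15 h. The 69 genes were selected by their difference from these same controls, which by itself favours calls in the same direction.

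No gene was called on the lists of the respiratory chain (51 genes), cytosolic ribosomal proteins (68), cholesterol synthesis (20), the TRiC chaperonin (8), progenitor and Notch genes (16), interferon and antigen presentation (21) or inflammation (12).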

How the data were processed

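RNA of 24 arrays on 3 slides was measured on Illumina mouse Ref8 bead arrays. The deposited intensity values are non-normalized probe signals with detection p-values given as a fraction, exported from BeadStudio 3.2.6 per the file headers. The authors' deposited ratio table holds a ratio, which equalled the signal over the array median over the control mean to within 1.87e-05, and was used as an alternative. Its detection values did not enter the fit. Detection came from the scanner table of gene values, which also gave the slides. On each array the scanner scores were carried to the probe signals by interpolation over signal. They entered the background correction, the probe filter and every count of arrays with detection.

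The signals were corrected with normexp (offset 16), quantile normalized and taken to log2 with limma 3.58.1 in R 4.3.3. Probes detected at p under 0.01 on at least 3 arrays were kept (13554 of 24613 with values), and the brightest probe stood for its gene, which left 10892 genes. Symbols were updated through RefSeq for 20514 probes. All 24 arrays were fitted as 7 group means with eBayes. Named genes are the 12 largest rises and falls that hold, up to 4 called genes per list, and 43 chosen genes. Some named genes are not reported here, and counts over alternatives include them. Members and lists were chosen with earlier results of these data known.

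Slides were taken from the scanner columns whose values equalled each deposited column (99.9% of 14487 genes within 1e-06). The treated columns matched scanner columns of another replicate number, so slide as labelled was an added alternative. The arrays of a treated group sat at the same place on every slide, and an effect of place cannot be told apart from the treatment. The fit was tested on simulated data. Alternatives were background correction, scaling, filters, blocks, variance models and leaving out arrays.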

Additional observations from a re-analysis of the deposited data

Results flagged for a closer look

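Of 91 named genes, 2 had a control array far from the other 5 by Dixon's criterion, which chance gives in about 1 of 20 groups. Hspb8 read 8.026 in control 2, above all arrays of 0.1 µM 24 h, and Fosb read 7.202 in control 5.

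Of the 52 named genes that passed against the controls, 20 also differed between 24 h and 15 h at 0.1 µM by limma's adjusted p. Controls enter the variance of that test but not the difference. Among genes higher at 24 h, the log2 difference between the times was 0.97 for Sirpa, 0.85 for Egr1, 0.79 for Cck, 0.76 for Cacna1a, 0.59 for Kcnh3 and 0.46 for Car2. Genes that were above the controls at 24 h but lower than at 15 h were Hspb8 at -2.63, Psmc3 at -0.62, Psmb3 at -0.54, Sqstm1 at -0.53 and Gpi1 at -0.33. Genes below the controls were lower at 24 h than at 15 h, with Scg2 at -1.32, Shmt2 at -0.88, Plk1 at -0.84, Pimreg at -0.83, Cdk1 at -0.76, Sidt1 at -0.70, Hk2 at -0.68 and Fadd at -0.42. Nupr1 stood at -1.25 and was detected on 0 of 3 arrays at 24 h, so this value depends on the background.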

How the results depend on the processing

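None of the 53 named genes that passed changed direction under the alternatives run, but the medians of the proteasome, NRF2 and glycolysis lists turned negative with median centring (-0.17, -0.04 and -0.04). The median of all genes fell as well under that scaling and lay below each of these list medians. The count of 245 genes changed against the controls was 2199 with median centring, 1932 in the authors' ratio table, 151 with cyclic loess, 405 with array weights, 391 with a separate variance for the controls, 84 without controls 5 and 6, and 0 in the fits of the 9 arrays and of the 7 arrays. With slide as a block it was 539 (451 with slide as labelled, chosen after seeing the data), and with replicate number as a block 801. Same-numbered arrays did not deviate together (correlations of 0.065, -0.053 and -0.016), so the numbers do not pair the arrays. Treated and control arrays of the same slide gave correlations of 0.034, 0.152 and 0.341 on slides 1, 2 and 3. Leaving out 1 array gave 3 to 958. The count of 69 that hold was 108 with offset 50, 586 with median centring, 895 in the ratio table, 23 with cyclic loess, 45 with array weights, 36 with a separate variance, 116 with trend and robust, 312 with slide as labelled, 0 in the fit of the 9 arrays, and 3 to 358 with 1 array left out. The count of 1282 between 24 and 15 h was 826 with median centring, 2444 with replicate number as a block, 2767 with array weights, and 777 to 912 with 1 array left out. The count of 5846 between doses stayed within 1.5 times, at 5313 to 5429 with 1 array left out. Of the 53 named genes that passed, 48, 50 and 34 no longer passed without treated replicate 1, 2 and 3, and 22 without controls 5 and 6. The causes were not tested. With 3 arrays a group, small differences and dim probes limit what can be detected.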

Other observations

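Some gene groups with 0 or 1 gene called at 24 h had more called at 15 h of the same dose. Against the shared controls, 8 of 19 astrocyte markers were higher at 15 h (median 0.41) and 0 of them passed at 24 h (median 0.13). Of 11 fibroblast and meningeal genes 7 were higher and 1 lower at 15 h (median 0.48), and 4 were lower at 24 h than at 15 h. Of 21 interferon and antigen presentation genes 8 were higher at 15 h (median 0.35), 0 passed at 24 h, and 5 were lower at 24 h than at 15 h. Of all genes, 8.52% were higher and 8.02% lower than the controls at 15 h, and 7.21% were lower at 24 h than at 15 h.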
